A study of Mus musculus with 6 samples.

Results

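Cohesin and CTCF shape chromosomes into loops, and the genes described here are the 10 that encode the core of this machinery, taken by symbol out of 24564 genes listed in the files: *Smc1a*, *Smc3*, *Rad21*, *Stag1*, *Stag2*, *Nipbl*, *Wapl* (listed as *Wapal*), *Pds5a*, *Pds5b* and *Ctcf*. The rule names genes and uses no measured value, though earlier results of these data were known when it was set. Their RNA was followed along the neuron lineage of the mouse olfactory epithelium, in the other cell types of the tissue, and in mice whose heterochromatin protein HP1β had been exchanged for HP1α. All 10 passed the filter on low counts in each tested comparison.

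Cohesin is a ring. SMC1A and SMC3 form its arms, RAD21 closes it, and STAG1 or STAG2 binds to RAD21, so that a complex carries either STAG protein. NIPBL loads the ring on chromatin and drives loop extrusion, WAPL opens it again together with the PDS5 proteins, and CTCF, a zinc finger protein, halts the moving ring at its binding sites. The same ring holds sister chromatids together from replication to anaphase. In olfactory sensory neurons (OSNs), CTCF and cohesin are known for the choice of protocadherin promoters, and long-range contacts between enhancers accompany the choice of the olfactory receptor gene.

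The 6 libraries came from main olfactory epithelium dissociated with papain and run on the 10X Chromium platform. In 2 swap libraries (genotype Cbx*/*, with Cre) the HP1β (*Cbx1*) coding sequence was replaced by that of HP1α (*Cbx5*) wherever Cre, which the study describes as specific to neuronal lineages, had acted. Of the 2 control libraries, replicate 1 is labelled WT with Cre and replicate 2 Cbx*/* without Cre, so that the controls are not of 1 genotype. The other 2 libraries are gg8-tTA; tetOP2iresGFP (tetOP2 below) and gg8-tTA (gg8tTA below), in which the gg8 promoter drives a transactivator in immature neurons and, in the former, the P2 receptor with GFP. The series text says that all mice carried one of these constructs, which the labels of the swap and control libraries do not name. The study describes swap mice as runts that mostly die young, and ages were not given in the sources used here. By *Xist* and *Ddx3y*, swap replicate 1, tetOP2 and gg8tTA came from females and the other 3 libraries from males, which bears on the X-linked *Smc1a* and *Stag2*.

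The libraries held 32005196 to 63277934 unique molecular identifiers (UMIs), and 2510 to 4884 cells per library remained after filters. Although the labels name the cells OSNs and the series text speaks of sorted cells, each library held many cell types. Cells were gated by marker genes that include none of the 10, and are named after the type they resemble: globose basal-like (GBC-like, stem and progenitor cells, 27 to 63 cells per library), immediate precursor-like (INP-like, 57 to 185), early immature OSN-like (fewer than 3 *Omp* UMIs), late immature OSN-like (at least 3), and mature OSN-like (mOSN-like, 625 to 1276). In mOSN-like cells the median cell carried 8 of 8 mature markers. *Cbx1* in mOSN-like cells stood at 0.958 and 3.38 CPM (UMIs of a gene per 1000000 UMIs of the gate) with the swap, where controls had 81.1 and 155. *Cbx5* stood at 73.2 and 88.6 CPM against 19.6 and 28.4, as the labels say. *Cbx1* was also low with the swap outside the neurons. Its mean was 1.03 CPM against 56.8 in controls in the supporting (sustentacular-like) cells. It was 0.465 against 57.8 in horizontal basal-like and 2.16 against 66.6 in microvillar Ascl3 type-like cells. Ensheathing glia-like (46.5 against 66.7), fibroblast-like (43.2 against 53.6) and B lineage-like cells (98.9 against 157) kept it. At most 20 cell barcodes were shared by any 2 libraries.

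Levels below are CPM of the UMIs summed over a gate in a library, so a level is a share of the RNA and not an amount per cell. Differences are log2 fold changes of edgeR after TMM scaling of the sums, except on UMIs per cell. Their standard error (SE) is the size of the log2 fold change divided by the square root of the test's F. Between lineage gates and against sustentacular-like cells, each gene's F rests on an estimate of spread shared by all gates in the fit. There the SE is not the spread of that change over libraries. CPM levels, and counts of libraries higher or lower, are not TMM-scaled, so a fold change can lie outside the ratios of the printed CPM. A gene counts as called when its adjusted p was under 0.05 and its log2 fold change exceeded 0.58 either way, which is 1.5-fold.

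The genes lie apart in the genome, save that *Rad21* and *Nipbl* are both on chromosome 15, *Pds5a* and *Pds5b* on chromosome 5, and *Smc1a* and *Stag2* on the X. Their spans in GRCm38 run from 29.5 kb for *Rad21* to 362 kb for *Stag1*, of which 3.26% of *Stag1* and 20.9% of *Pds5a* is exonic. Introns were counted, so the long intron-rich genes collect reads from unspliced RNA as well. RefSeq promoters, from 250 bases before to 50 after the start in GRCm38.p6, were at hand for 7 of the 10 (not for *Rad21*, *Stag2* and *Nipbl*). They held 58.3% G and C in *Smc1a* to 80.3% in *Pds5a*, against a median of 52.7% over 32851 promoters, and 23 to 55 CG dinucleotides against a median of 7. The promoters of 3 genes that were higher in dividing precursors (*Ctcf*, *Smc1a*, *Pds5a*) and of *Stag1*, which was lower in neurons, are shown 5′ to 3′ in the gene's direction. Capitals mark 4 motifs, searched on both strands only in the form given. These are the cell cycle homology region (CHR, TTTGAA), an E2F motif (TTTNGCGC), the NRF1 motif (GCGC, any base, then TGCGC) and the CCAAT box (CCAAT).
Ctcf, chr8:105636288-105636587, plus strand: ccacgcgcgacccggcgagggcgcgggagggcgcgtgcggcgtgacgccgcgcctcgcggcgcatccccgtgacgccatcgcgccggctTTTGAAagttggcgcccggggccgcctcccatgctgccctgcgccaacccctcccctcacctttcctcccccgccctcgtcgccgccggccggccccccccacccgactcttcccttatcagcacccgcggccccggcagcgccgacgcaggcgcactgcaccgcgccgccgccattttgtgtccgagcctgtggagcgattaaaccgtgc
Smc1a, chrX:152016178-152016477, plus strand: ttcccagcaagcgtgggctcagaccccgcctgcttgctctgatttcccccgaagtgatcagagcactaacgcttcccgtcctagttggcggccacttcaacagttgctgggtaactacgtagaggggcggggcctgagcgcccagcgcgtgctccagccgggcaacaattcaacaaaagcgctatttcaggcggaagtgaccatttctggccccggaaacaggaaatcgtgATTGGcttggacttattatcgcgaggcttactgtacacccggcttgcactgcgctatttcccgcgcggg
Pds5a, chr5:65698187-65698486, minus strand: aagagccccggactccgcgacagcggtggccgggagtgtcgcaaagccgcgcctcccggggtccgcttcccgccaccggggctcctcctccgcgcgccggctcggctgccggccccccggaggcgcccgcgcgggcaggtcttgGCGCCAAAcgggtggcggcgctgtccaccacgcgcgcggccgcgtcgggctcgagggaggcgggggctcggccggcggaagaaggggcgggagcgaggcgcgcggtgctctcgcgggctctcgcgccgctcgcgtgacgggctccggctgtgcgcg
Stag1, chr9:100643198-100643497, plus strand: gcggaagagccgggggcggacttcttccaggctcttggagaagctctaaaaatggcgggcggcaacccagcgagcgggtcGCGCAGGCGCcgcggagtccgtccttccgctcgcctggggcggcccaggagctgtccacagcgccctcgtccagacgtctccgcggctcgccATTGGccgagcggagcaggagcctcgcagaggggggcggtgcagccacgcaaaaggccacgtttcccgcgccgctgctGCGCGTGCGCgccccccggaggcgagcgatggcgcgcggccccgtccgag

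In *Ctcf* the capitals mark a CHR match 161 bases before the start, in *Pds5a* an E2F match on the minus strand, in *Smc1a* a CCAAT box on the minus strand, and in *Stag1* a CCAAT box and 2 NRF1 matches. Over the 7 promoters, CHR was found in 2 (*Ctcf* and *Pds5b*), E2F in 1, NRF1 in 3 and CCAAT in 4. Of all promoters of this length, 17.9%, 1.38%, 4.6% and 37.4% hold them. These shares are over all promoters and are not matched for the higher content of G and C, and of CG dinucleotides, given above. Other forms of these motifs were not searched, and no match is a tested site.

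From progenitor to mature neuron, most of these genes took a smaller share of the RNA, and *Stag2* a larger one. Between GBC-like and mOSN-like cells, 6 of the 10 were called lower (*Smc1a*, *Rad21*, *Stag1*, *Wapl*, *Pds5a* and *Ctcf*) and 1, *Stag2*, was called higher. The other 3 (*Smc3*, *Nipbl*, *Pds5b*) had log2 fold changes of −0.36, −0.33 and −0.54, past the adjusted p but inside the fold limit. The background is large, since 66.0% of the 13649 genes tested were called, 30.6% lower and 35.5% higher. The median log2 fold change was −0.63 over the 10 genes and 0.12 over all genes.

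**Figure D1:**
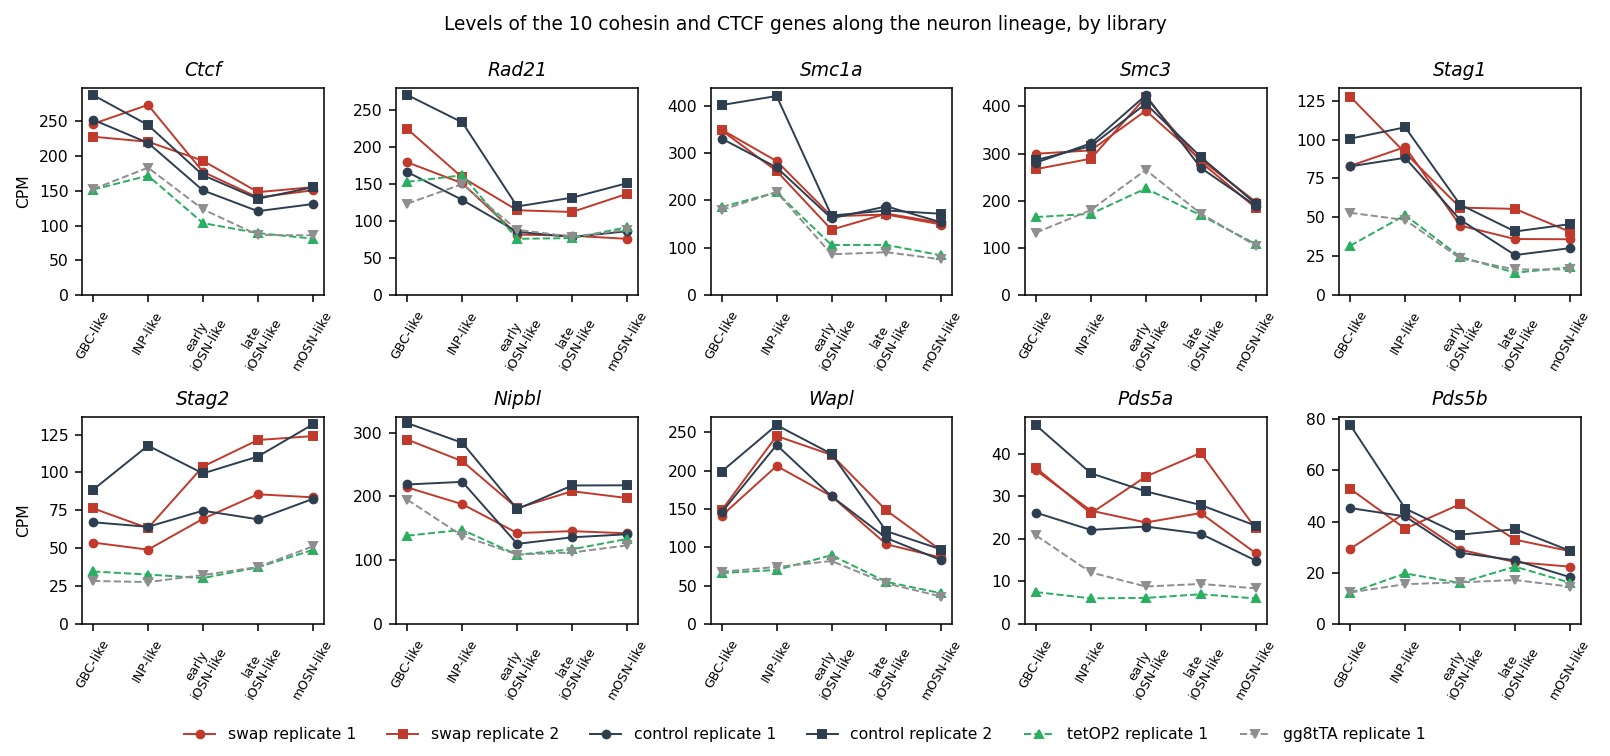
CPM of each gene (vertical axis) in the 5 gates of the neuron lineage (horizontal axis), with a line for each of the 6 libraries. *Smc1a* and *Stag1* drop at the step into early immature OSN-like cells, *Smc3* peaks there in all 6 libraries, and *Stag2* climbs to the mOSN-like cells on this scale (on UMIs per cell it is lower there than in GBC-like cells).

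Of the ring's arms, *Smc1a* stood in GBC-like cells at 349 and 348 CPM in the swap libraries, 330.3 and 401 in the controls, 186 in tetOP2 and 179.6 in gg8tTA. In mOSN-like cells the same libraries gave 149 and 153, 154 and 172, 83.9 and 75.6 CPM. Every library lay lower in the neurons, to 0.498 times in the fit (log2 −1.01, SE 0.10, edgeR adjusted p = 1.39e-13). Within libraries the log2 ratio of the 2 unscaled CPM values spanned −1.25 to −1.10, further from 0 than the scaled fit.

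*Smc3*, its partner arm, followed another course. Its level in early immature OSN-like cells was 391 and 419.7 CPM in the swap libraries, 423 and 406 in the controls, 226 in tetOP2 and 265 in gg8tTA. In each of the 6 libraries this was the highest of the 11 gates compared, 1.84 times the mean over the gates on average (range 1.68 to 2). In mOSN-like cells it had come down to 198 and 185, 189.7 and 194, 108 and 105 CPM. Set against *Smc1a* in the same cells, the ratio of *Smc3* to *Smc1a* UMIs was 0.713 to 0.889 in GBC-like cells, 2.13 to 3.07 in early immature and 1.13 to 1.39 in mOSN-like cells. The ratio is read across gates only, because UMIs of 2 genes are not captured alike.

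*Rad21*, which closes the ring, lay at 179.6 and 225 CPM in the swap libraries, 166 and 271 in the controls, 153 in tetOP2 and 124 in gg8tTA for GBC-like cells. In mOSN-like cells these libraries gave 76.1 and 137, 86.4 and 151, 91.8 and 88.3 CPM. The level was lower in the neurons in 6 of 6 libraries (log2 −0.64, SE 0.13, edgeR adjusted p = 7.69e-06), and without swap replicate 1 the log2 fold change of −0.55 was inside the fold limit.

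The 2 STAG genes went apart. *Stag1* in GBC-like cells lay at 83.1 and 128 CPM in the swap libraries, 82.8 and 101 in the controls, 31.8 in tetOP2 and 52.9 in gg8tTA. In mOSN-like cells it lay at 35.9 and 40.7, 30.2 and 45.7, 17.9 and 16.6 CPM, to 0.449 times in the fit (log2 −1.16, SE 0.12, edgeR adjusted p = 1.78e-12). Of the 10 genes this was the largest change between these gates.

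*Stag2* was at 53.7 and 76.3 CPM in the GBC-like cells of the swap libraries, 67.1 and 88.6 in the controls, 34.6 in tetOP2 and 28.4 in gg8tTA. In mOSN-like cells it was at 83.6 and 124, 82.5 and 132, 48.8 and 51.2 CPM, so that each library rose, to 1.71 times in the fit (log2 0.77, SE 0.11, edgeR adjusted p = 1.3e-08). On UMIs per cell the direction of *Stag2* was the opposite (log2 −0.38, SE 0.16, edgeR adjusted p = 0.03), where the median of all genes stood at −0.99. GBC-like cells held more UMIs each: their median depth was 17669 to 25317.5 UMIs per library, against 11271 to 12521.5 in mOSN-like cells. Whether this reflects their RNA content was not tested. On that scale 9 of the 10 genes were called, all lower, where 55.4% of all genes were called lower.

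The ratio of *Stag2* to *Stag1* UMIs does not depend on the scale. It lay between 0.536 and 1.09 over the 6 libraries in GBC-like cells and between 0.515 and 1.09 in INP-like cells. It then stood at 1.22 to 1.85 in early immature, 2.19 to 2.7 in late immature and 2.33 to 3.09 in mOSN-like cells. From INP-like to late immature cells the ranges of consecutive gates do not overlap, whereas the late immature and mature ranges do. Sustentacular-like cells, the supporting cells of the epithelium, had 1.18 to 1.79, and horizontal basal-like cells, the reserve stem cells, 0.705 to 1.19. Fibroblast-like cells had 0.695 to 1.06 and B lineage-like cells 0.542 to 1.64. Microvillar Ascl3 type-like cells had 1.4 to 2.62 and ensheathing glia-like cells 0.917 to 2.47, which overlap the late immature and mature ranges. *Stag2* is X-linked, and the ratio in mOSN-like cells was 2.33 to 3.09 in the 3 female and 2.73 to 3.04 in the 3 male libraries.

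**Figure D2:**
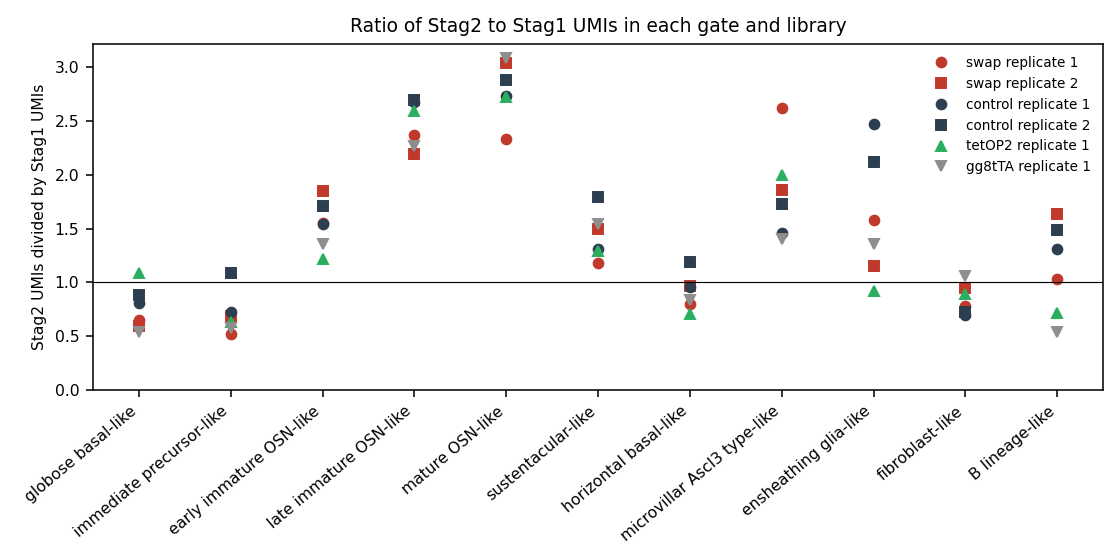
*Stag2* UMIs divided by *Stag1* UMIs (vertical axis) in 11 gates (horizontal axis), a point per library. The median over the 6 libraries is 0.728 in GBC-like cells and 2.81 in mOSN-like cells, and the line marks a ratio of 1.

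*Nipbl*, the loader, was at 214 and 289 CPM in the GBC-like cells of the swap libraries, 219 and 315 in the controls, 138 in tetOP2 and 195 in gg8tTA. In mOSN-like cells it was at 142 and 197, 141 and 217, 133 and 123 CPM. All 6 libraries were lower in the neurons, and the log2 fold change was −0.33 (SE 0.11, edgeR adjusted p = 0.00455), less than 1.5-fold.

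Of the genes for release, *Wapl* had its highest lineage level in INP-like cells in the 4 swap and control libraries and in early immature OSN-like cells in tetOP2 and gg8tTA. In INP-like cells it had 206 and 245 CPM in the swap libraries, 233 and 259 in the controls, 70.3 in tetOP2 and 74.3 in gg8tTA. Early immature OSN-like cells gave 167 and 220.4, 166 and 221.7, 89.6 and 82 CPM, and this step was not called (log2 −0.21, edgeR adjusted p = 0.0926). In mOSN-like cells 86.3 and 95.7, 83 and 97, 39.9 and 35.7 CPM were left, and the change from GBC-like to mOSN-like cells was −0.63 (SE 0.11, edgeR adjusted p = 9.51e-07).

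*Pds5a* and *Pds5b*, whose proteins bind the ring and act with WAPL, had few UMIs in GBC-like cells, 8 to 43 and 13 to 65 per library. *Pds5a* spanned 7.48 to 46.7 CPM there and 5.98 to 23.1 in mOSN-like cells, and was lower in the neurons in 6 of 6 libraries (log2 −0.73, SE 0.15, edgeR adjusted p = 2e-05). *Pds5b*, with log2 ratios of unscaled CPM from −1.44 to 0.41 within libraries, was lower in 4 of 6 (log2 −0.54, SE 0.14). In tetOP2 and gg8tTA it went the other way. It was called lower without swap replicate 2, without tetOP2 or without gg8tTA, at −0.60 to −0.66, and without the latter pair together, at −0.91. DESeq2 called it as well (−0.66), as did edgeR with DESeq2 size factors (−0.64), with doublets kept (−0.64) or with a minimum of 3000 UMIs (−0.63), so that 8 members were called in each of these fits.

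*Ctcf* was at 246 and 227 CPM in the GBC-like cells of the swap libraries, 252 and 287 in the controls, 152 in tetOP2 and 152 in gg8tTA. The mOSN-like cells gave 151 and 155, 131 and 155, 81.2 and 85.9 CPM. Every library was lower in its neurons, and the log2 fold change was −0.62 (SE 0.08, edgeR adjusted p = 2.88e-10). With no filter on low counts, *Ctcf*, *Rad21* and *Wapl* came to −0.48, −0.50 and −0.49, inside the limit, and 4 of the 10 genes were called, where 50.1% of all genes were.

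Other cells' RNA differs between these gates. Of 6 sustentacular markers, the median GBC-like cell carried 3, at 11.9 UMIs per cell in sum, against 1 at 2.13 UMIs in mOSN-like cells, and the 8 mature OSN markers summed to 2.87 UMIs per GBC-like cell. Their part in these differences was not tested.

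By step, most calls fell between INP-like and early immature OSN-like cells. From GBC-like to INP-like cells none of the 10 was called by edgeR or DESeq2, with 3 (edgeR) and 2 (DESeq2) at an unadjusted p below 0.05, against 32.6% of all genes called by edgeR and 32.7% by DESeq2. *Wapl* had the largest value (log2 0.48, SE 0.11, edgeR adjusted p = 0.000448), higher in 6 of 6 libraries but inside the fold limit.

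From INP-like to early immature OSN-like cells 5 of the 10 were called lower and none higher, where 40.7% of all genes were called, 18.3% lower. *Smc1a* had a log2 fold change of −1.09 (SE 0.10), *Stag1* −0.99 (SE 0.12), *Rad21* −0.86 (SE 0.13), *Nipbl* −0.59 (SE 0.11) and *Ctcf* −0.58 (SE 0.08), each lower in 6 of 6 libraries. *Smc3* was higher in 6 of 6 (log2 0.37, SE 0.08, edgeR adjusted p = 0.00012) without reaching 1.5-fold. *Ctcf* and *Nipbl* sit at the limit: without tetOP2, without control replicate 1 or without control replicate 2 both were inside it, at −0.58 to −0.50 and −0.56 to −0.47, and 3 genes were called. Without gg8tTA (*Ctcf* −0.58), swap replicate 1 (*Ctcf* −0.56) or swap replicate 2 (*Nipbl* −0.57), 4 were called.

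From early to late immature OSN-like cells only *Wapl* was called (log2 −0.71, SE 0.11, edgeR adjusted p = 3.32e-07), lower in 6 of 6 libraries, against 20.6% of all genes called, 9.8% lower. *Smc3* (−0.57, SE 0.08), *Stag1* (−0.52, SE 0.13) and *Ctcf* (−0.38, SE 0.08) passed the adjusted p and stayed inside the fold limit. *Smc3* passed it without swap replicate 1 (−0.59) and without swap replicate 2 (−0.59), and *Stag1* without swap replicate 2 (−0.65), which gives 2 and 3 called genes. On UMIs per cell *Wapl* came to −0.32 and was not called.

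From late immature to mOSN-like cells no member was called by edgeR or DESeq2, with 6 and 7 at an unadjusted p below 0.05, where 24.9% of all genes were called by edgeR and 22.7% by DESeq2. *Smc3* was lower in 6 of 6 libraries (log2 −0.34, SE 0.08) and *Stag2* higher in 5 of 6 (log2 0.46, SE 0.10). In unscaled CPM the log2 ratios within libraries were −0.717 to −0.509 for *Smc3*, a range on both sides of the fold limit. Those of *Stag2* were −0.034 to 0.447, so both genes depend on the scaling here.

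Cohesin also serves division, and the gates differ in dividing cells. Cells were called cycling when they carried at least 5 of 16 cell cycle genes, and non-cycling with at most 2. By this measure 83.3% to 100% of GBC-like and 23.8% to 57.6% of INP-like cells were cycling. Too few GBC-like cells were non-cycling (0 to 8 per library), so the comparison rests on the INP-like gate alone, with 22 to 49 cycling and 22 to 120 non-cycling cells per library. The count of detected cell cycle genes was not adjusted for depth. In each library the cycling INP-like cells held more UMIs per cell than the non-cycling ones. The part of depth in this comparison, and in the later fit on non-cycling cells alone, was not tested.

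Within that gate 4 of the 10 genes were called higher in cycling cells and none lower, where 27.8% of the 7170 genes tested were called, 14.7% higher and 13.1% lower. *Rad21* stood in cycling cells at 223 and 235 CPM in the swap libraries, 224 and 333 in the controls, 209 in tetOP2 and 191 in gg8tTA. Non-cycling cells gave 60.4 and 52.1, 73.7 and 123, 61.2 and 44.1 CPM. The groups do not overlap, and the difference was 3.39-fold (log2 1.76, SE 0.13, edgeR adjusted p = 6.24e-13).

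*Smc1a* stood at 367 and 360.4 CPM in the cycling cells of the swap libraries, 399.9 and 602 in the controls, 274 in tetOP2 and 256 in gg8tTA. Its non-cycling cells gave 172 and 149.9, 174 and 197, 80.3 and 152 CPM, a 2.51-fold difference (log2 1.33, SE 0.11, edgeR adjusted p = 1.12e-11). Like *Rad21*, it was higher in 6 of 6 libraries.

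*Ctcf* stood at 374 and 239 CPM in the cycling cells of the swap libraries, 322 and 287 in the controls, 204 in tetOP2 and 202 in gg8tTA. Non-cycling cells gave 149 and 202, 142 and 189, 95.6 and 142 CPM. Each library was higher in its cycling cells, and the log2 fold change was 0.87 (SE 0.13, edgeR adjusted p = 9.67e-07).

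*Pds5a* was higher in 5 of 6 libraries (log2 0.92, SE 0.30, edgeR adjusted p = 0.0155) on 1 to 13 UMIs per library in the non-cycling cells. DESeq2 did not call it (adjusted p = 0.202), nor did edgeR without control replicate 1 (0.67, adjusted p = 0.169) or without control replicate 2 (0.91, adjusted p = 0.0501).

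The other 6 were not called. *Stag1* was higher in 6 of 6 libraries with a log2 fold change of 0.57 (SE 0.16, edgeR adjusted p = 0.00412), just inside the limit, and passed it without gg8tTA (0.61), swap replicate 1 (0.63) or swap replicate 2 (0.65). *Smc3* gave 0.31 (SE 0.11), *Pds5b* 0.38 (SE 0.25), *Stag2* 0.21 (SE 0.17), *Nipbl* 0.11 (SE 0.11) and *Wapl* −0.23 (SE 0.12), and *Smc3* too passed the adjusted p (0.0326 by edgeR). The arms of the ring thus had log2 differences of 1.33 and 0.31 between the same cells.

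**Figure D3:**
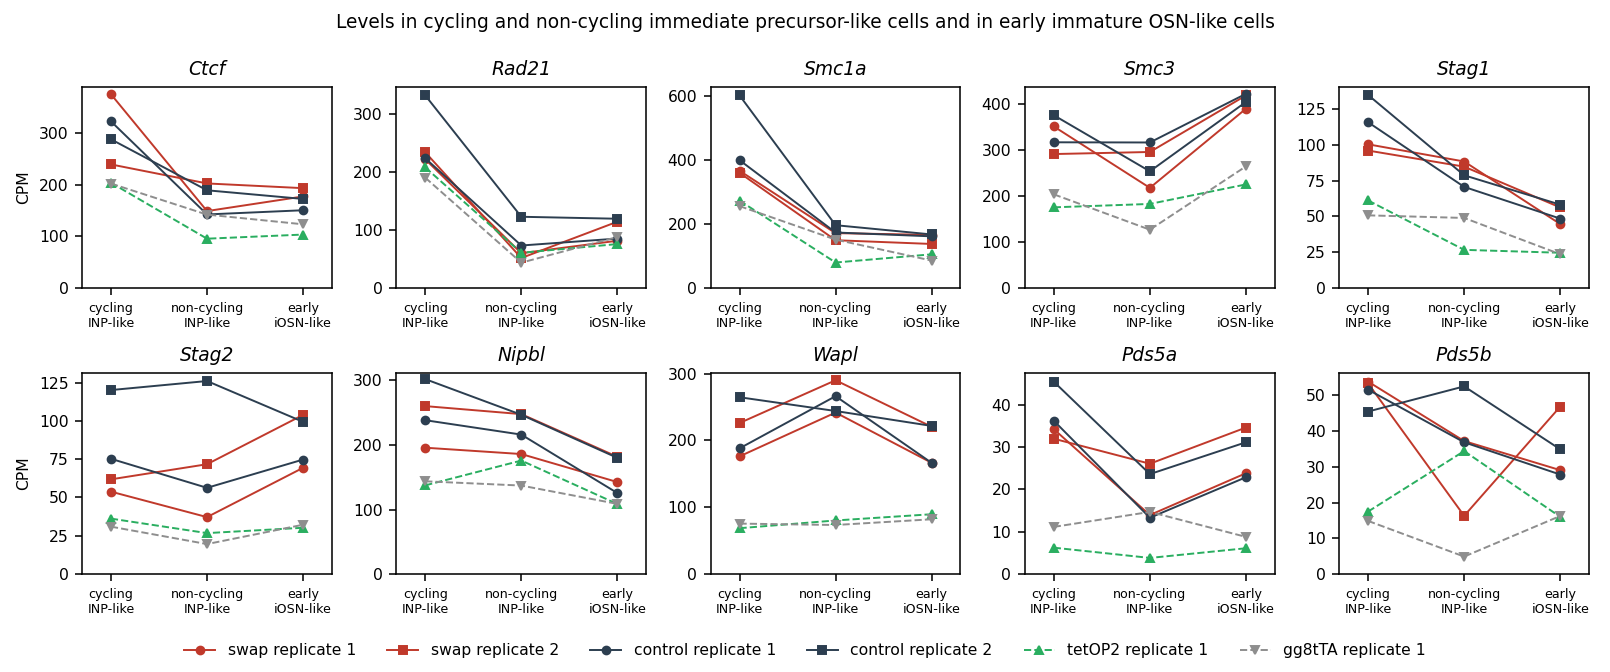
CPM of each gene (vertical axis) in cycling INP-like, non-cycling INP-like and early immature OSN-like cells (horizontal axis), with a line per library. *Rad21* and *Smc1a* lie lower in the non-cycling than in the cycling precursors of each library, while *Smc3* lies higher in the early neurons than in the non-cycling precursors of all 6.

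The step into neurons was therefore also fitted with the non-cycling INP-like cells alone, an alternative added after the data had been seen. Early immature OSN-like cells then differed from them in 2 called genes, *Smc3* higher (log2 0.59, SE 0.10, edgeR adjusted p = 1.45e-06) and *Stag1* lower (log2 −0.64, SE 0.15, edgeR adjusted p = 0.000704), where 27.0% of all genes were called. *Smc3* was higher and *Stag1* lower in 6 of 6 libraries. The values of *Ctcf* (0.01, SE 0.09), *Smc1a* (−0.15, SE 0.11) and *Rad21* (0.40, SE 0.16, edgeR adjusted p = 0.0522) were not called, and *Nipbl* kept −0.53 (SE 0.12), inside the limit. From GBC-like to non-cycling INP-like cells 4 genes were called lower, *Rad21* (−1.50, SE 0.16), *Smc1a* (−1.08, SE 0.11), *Pds5a* (−1.04, SE 0.23) and *Ctcf* (−0.66, SE 0.09), where 23.4% of all genes were called lower. The GBC-like side kept all its cells, 83.3% to 100% of them cycling, so this contrast also sets cycling against non-cycling cells. It shares its non-cycling sums with the comparison of cycling and non-cycling INP-like cells, which called the same 4 genes, and is not independent of it. Of these 4 genes, the 3 whose promoters are shown above have a CHR match (*Ctcf*), an E2F match (*Pds5a*) and neither (*Smc1a*), in the forms searched only. The other CHR match among the 7 promoters was in *Pds5b*, which was not called between cycling and non-cycling INP-like cells. Whether these motifs bear on the levels was not tested.

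Related genes are given by list, beside the median of −0.63 and the 7 of 10 called for the core. Of all genes tested between GBC-like and mOSN-like cells, 30.6% were called lower and 35.5% higher. Among other cohesin genes, 10 of 14 were tested between GBC-like and mOSN-like cells, 8 were called lower and 1 higher, with a median log2 fold change of −6.24 against 0.12 for all genes. *Esco2*, the acetyltransferase of replication, went from 28.4 to 117 CPM in GBC-like cells to 0 to 3 UMIs per library in mOSN-like cells, and the shugoshins *Sgo1* and *Sgo2a* from 35.2 to 73 and 37.4 to 107 CPM to 1 to 10 and 3 to 11 UMIs. *Esco1*, the acetyltransferase that works outside replication, was the one called higher (log2 0.98, SE 0.17, edgeR adjusted p = 4.63e-07).

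All 8 condensin genes were tested, and 7 were called lower (median log2 −3.90). *Smc2* went from a median of 255 to 6.49 CPM and *Smc4* from 405 to 26.9, and *Ncaph* was left with 0 to 3 UMIs per library. *Ncapg2* was called higher, from a median of 41.4 to 152 CPM (log2 2.23, SE 0.25, edgeR adjusted p = 5.58e-12). Of the SMC5/6 genes with *Smchd1*, whose median was −0.20, 3 of 9 were called lower, among them *Smc6* (−0.96, SE 0.11) and *Smchd1* (−1.02, SE 0.17), and 2 higher, *Slf1* (0.96, SE 0.15) and *Nsmce3* (0.77, SE 0.11). Of 13 CTCF partners and architectural factors tested, with a median of −0.52, 5 were called lower, led by *Maz* (−1.64, SE 0.11), *Med1* (−1.61, SE 0.13) and *Parp1* (−1.09, SE 0.10), and *Top2b* was called higher (0.63, SE 0.11). In the SMC5/6 list and that of CTCF partners, the calls lower lie near the 30.6% of all genes called lower. All 16 cell cycle genes were called lower.

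In cycling against non-cycling INP-like cells, 8 of 14 other cohesin genes passed the filter on low counts. A gene could pass it through the cycling cells alone. Of those tested, 6 of 8 other cohesin genes, 7 of 8 condensin genes and 8 of 9 SMC5/6 genes were called higher. Of all genes 14.7% were, and the 2 of 13 CTCF partners called higher are near that share. The cell cycle genes defined these cells and are no finding there. Genes of the other lists that serve replication or division go with that gating, so their calls are given as a description. *Smchd1*, named after its value was seen, was the exception that was called lower (log2 −1.83, SE 0.09, edgeR adjusted p = 2.38e-17).

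Across the other cell types of the tissue, each gene had its own order of levels. Values are CPM relative to the library's mean over 11 gates with at least 20 cells in every library, given as a description.

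*Ctcf* was highest in B lineage-like cells in 6 of 6 libraries, at 271 to 396 CPM and 2.27 times the mean (range 1.96 to 2.67). INP-like and GBC-like cells followed at 1.41 and 1.40 times, in an order that differed between libraries, and fibroblast-like cells were last in 4 of 6 libraries. *Wapl* was the opposite in the B lineage-like gate, lowest of the 11 in 6 of 6 libraries at 10.3 to 48.9 CPM and 0.296 times the mean. These cells are shallow, with a median of 2992 to 6623 UMIs, and *Wapl* had 4 to 107 UMIs per library there. *Wapl* was highest in microvillar Ascl3 type-like cells, a rare epithelial type that carries *Cftr* and *Foxi1*, in 5 of 6 libraries (1.95 times, 101 to 327 CPM).

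*Pds5b* was highest in ensheathing glia-like cells in 5 of 6 libraries (1.83 times, 36.6 to 93.8 CPM), on 15 to 57 UMIs per library, and lowest in sustentacular-like cells in 4 of 6. *Stag2* was highest in B lineage-like cells in 4 of 6 libraries and in microvillar Ascl3 type-like cells in the other 2. *Smc1a* was highest in GBC-like or INP-like cells, 3 libraries each, and lowest in fibroblast-like cells in 5 of 6, as were *Smc3* and *Nipbl*. *Stag1* was lowest in late immature or mature OSN-like cells in 5 of 6 libraries. *Rad21* was highest in GBC-like cells in 4 of 6 libraries, and *Pds5a* in B lineage-like cells in 3 of 6.

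**Figure D4:**
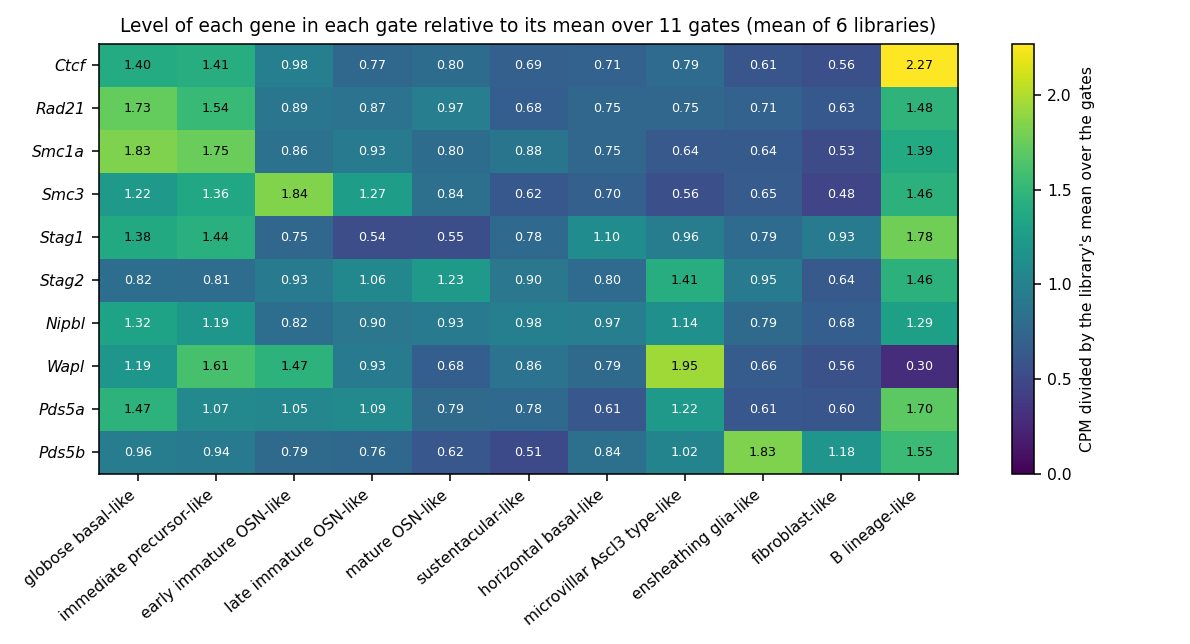
CPM of each gene (rows) in each of 11 gates (columns) divided by the library's mean over the gates, averaged over 6 libraries (colour and printed value). *Ctcf* at 2.27 and *Wapl* at 0.30 mark the B lineage-like gate, and *Smc3* at 1.84 the early immature OSN-like gate.

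Against sustentacular-like cells, which share the epithelium with the neurons and do not divide often, mOSN-like cells had none of the 10 called by edgeR or DESeq2, with 7 and 6 at an unadjusted p below 0.05, where 63.4% of all genes were called by edgeR and 62.3% by DESeq2. *Rad21* was nearest (log2 0.57, SE 0.12, edgeR adjusted p = 2.9e-05, higher in 6 of 6 libraries), and without swap replicate 1 it passed the limit at 0.64. *Stag2* (0.50, SE 0.10) and *Smc3* (0.48, SE 0.08) were higher in 6 of 6 libraries and *Stag1* (−0.46, SE 0.11) and *Wapl* (−0.30, SE 0.10) lower in 6 of 6, all inside the limit. On UMIs per cell *Stag1* (−0.91) and *Wapl* (−0.74) were called lower, as were 44.3% of all genes, whose median was −0.47.

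The study concerns the zones of the epithelium, and *Nqo1* marks its dorsal neurons. Between mOSN-like cells with at least 2 *Nqo1* UMIs and those without any UMI of *Nqo1* or *Acsm4*, another dorsal marker, no member was called, against 8.72% of 12013 genes by edgeR and 4.65% by DESeq2, and edgeR and DESeq2 each had 2 members at an unadjusted p below 0.05. *Ctcf* was higher in *Nqo1*-positive cells in 6 of 6 libraries (log2 0.24, SE 0.04, edgeR adjusted p = 0.00051), with 166 and 169 against 140 and 149 CPM in the swap and 137 and 177 against 126 and 142 in the control libraries. *Stag1* was higher in 6 of 6 as well (log2 0.27, SE 0.07, edgeR adjusted p = 0.0221, DESeq2 adjusted p = 0.106). *Stag2* had a log2 fold change of −0.09 (SE 0.05, edgeR adjusted p = 0.336) and was lower in 6 of 6. All of these were smaller than 1.5-fold.

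Whether exchanging HP1β for HP1α altered the loop-forming genes was asked in 6 gates. None of the 10 was called between swap and control libraries in any of them by edgeR or DESeq2, and none had an unadjusted p below 0.05 by either tool. In mOSN-like cells the background was also empty by edgeR, 0.0% of 12461 genes, with 316 genes at an unadjusted p below 0.05 and 177 called by DESeq2 (1.42%). In the late immature gate edgeR called 29 of 9641 genes (0.301%, and 0.353% by DESeq2), in the early immature gate 0 of 11585 (0.0%, with 215 at an unadjusted p below 0.05 and 49, or 0.423%, called by DESeq2), in the INP-like gate 4 of 8107 (0.0493% by either tool), in the GBC-like gate 1 of 8136 (0.0123%, and 0.0246% by DESeq2) and in the sustentacular-like gate 0 of 13066 (0.0%, with 148 at an unadjusted p below 0.05 and 35, or 0.268%, called by DESeq2). *Cbx1* itself, at a log2 fold change of −5.71 (SE 0.69) in mOSN-like cells, was not called there (edgeR adjusted p = 0.103), so that with 2 libraries a group a large difference can miss the threshold.

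In mOSN-like cells the log2 fold changes of the 10 genes spanned −0.17 to 0.10, on 2 libraries a group that differ widely. Leaving out 1 library turned signs: *Rad21* came to −0.67 without swap replicate 2, −0.47 without control replicate 1, 0.21 without swap replicate 1 and 0.23 without control replicate 2. *Stag2* spanned −0.39 to 0.26 and *Nipbl* −0.36 to 0.20 over the same 4 fits, in the same order, and *Pds5b* −0.14 (without control replicate 1) to 0.40 (without control replicate 2). *Rad21* had the lowest (−0.17, SE 0.41) with 76.1 and 137 CPM in the swap and 86.4 and 151 in the control libraries. *Pds5b* had the highest (0.10, SE 0.30) with 22.4 and 28.5 against 18.3 and 28.6 CPM. *Ctcf* had 0.07 (SE 0.18) and the X-linked *Smc1a* −0.14 (SE 0.17). For *Smc1a* the values were 149 and 153 against 154 and 172 CPM, the only member without overlap here, where 18.8% of all genes tested had none, and the 2 male libraries of replicate 2 gave a log2 ratio of −0.17. For the X-linked *Stag2* the fold change was −0.06 (SE 0.32), and the male pair gave −0.09.

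**Figure D5:**
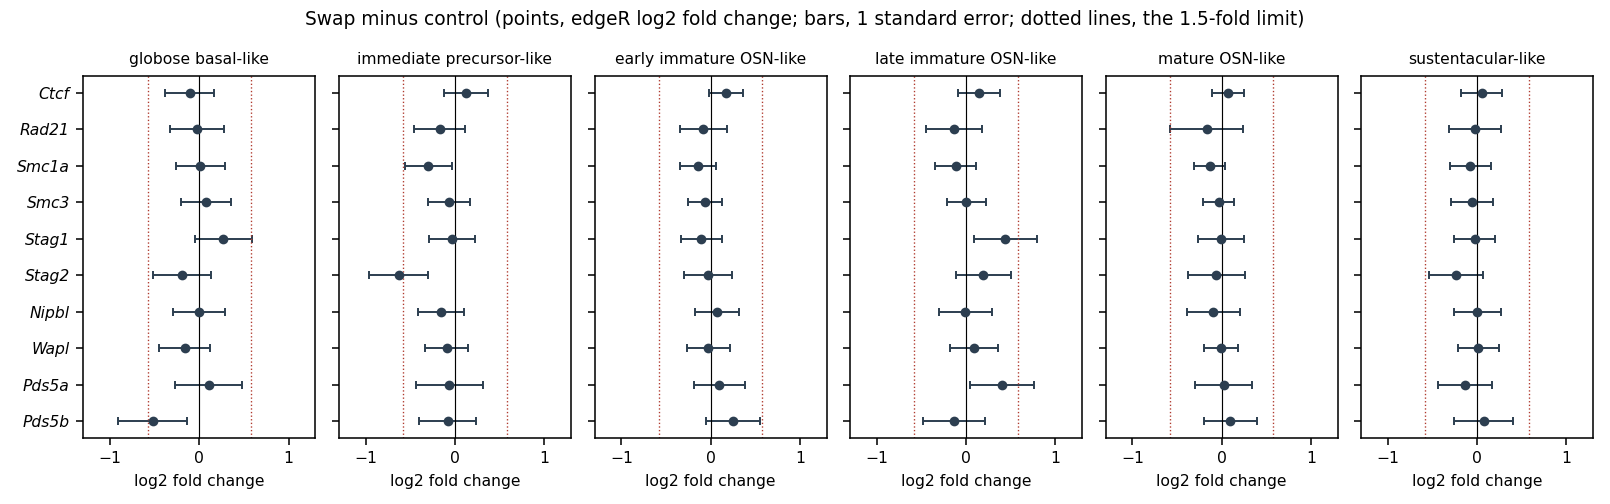
Log2 fold change of swap minus control (points, horizontal axis) with 1 SE (bars) for the 10 genes (rows) in 6 gates (panels), 2 libraries a group. Dotted lines mark the 1.5-fold limit, which the point of *Stag2* in INP-like cells crosses at −0.63 without passing the test.

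In the other gates the widest values were those of *Stag2* in INP-like cells and *Pds5b* in GBC-like cells. *Stag2* had 49 and 63.2 CPM in the swap and 64.1 and 118 in the control libraries (log2 −0.63, SE 0.33, edgeR adjusted p = 1.0). These values do not overlap, and the male pair alone gave −0.90 and the replicate 1 pair, a female and a male, −0.39. With 1 library left out the value ran from −0.985 (without control replicate 1) to −0.18 (without control replicate 2). *Pds5b* had 29.4 and 52.8 against 45.3 and 77.8 CPM (log2 −0.52, SE 0.39, edgeR adjusted p = 1.0), with overlap. In late immature OSN-like cells *Stag1* and *Pds5a* had 0.44 (SE 0.36) and 0.40 (SE 0.35). Groups did not overlap for 2 of 10 genes in late immature cells (*Ctcf*, *Smc1a*, with 20.6% of all genes tested), 1 in early immature cells (*Ctcf*, 21.1%), 2 in INP-like cells (*Smc3*, *Stag2*, 26.6%), 1 in GBC-like cells (*Ctcf*, 24.8%) and 0 in sustentacular-like cells (15.9%). These counts are near or below the shares of all genes.

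Many of these genes followed the replicate number. In mOSN-like cells both replicate 2 libraries lay above both replicate 1 libraries for 8 of the 10 genes, all but *Smc1a* and *Smc3*, as they did for 35.7% of all genes tested, and the reverse held for no member. The count was 7 in late immature (33.4% of all genes), 7 in early immature (33.8%), 3 in INP-like (26.2%), 7 in GBC-like (31.6%) and 8 in sustentacular-like cells (42.8%). For *Rad21* in mOSN-like cells the log2 ratio of replicate 2 to replicate 1 was 0.85 in the swap and 0.81 in the control libraries, while swap to control gave −0.18 in replicate 1 and −0.14 in replicate 2. The library names in the labels share a prefix within a replicate number. Sex and the control genotype move with the number in part, and these cannot be told apart.

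The change from GBC-like to mOSN-like cells was compared between swap and control as a difference of differences. No member was called by edgeR or DESeq2, which gave no adjusted p for 9 of them, and none had an unadjusted p below 0.05, where 2 of 12987 genes were called by edgeR (0.0154%) and 0.0077% by DESeq2. *Pds5b* had the largest value (log2 0.61, SE 0.31, edgeR adjusted p = 1.0), and the other 9 lay between −0.25 and 0.16.

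With 1 library each, tetOP2 and gg8tTA allow no test. In mOSN-like cells no member differed by 1.5-fold, where 3.64% of 8059 genes with a mean of at least 10 CPM did (*Pds5a* is below that level). Ratios of tetOP2 to gg8tTA ran from 0.716 for *Pds5a* (43 against 63 UMIs, 95% interval 0.474 to 1.07) to 1.12 for *Wapl* (0.945 to 1.33), and the exact intervals of all 10 include 1 and cover counting error only. Both libraries stood below the 4 swap and control libraries without overlap for 10 of 10 genes in GBC-like cells, as for 16.3% of all genes tested. They did so for 9 of 10, all but *Rad21*, in each of the INP-like (17.4% of all genes), early immature (22.9%), late immature (18.8%) and mature gates (20.2%). In GBC-like cells the mean of *Ctcf*, for one, was 0.6 times that of the other libraries. These 2 libraries also differ from the others in genotype and in the prefix of their library names. Both came from females, as among the other 4 only swap replicate 1 did. Genotype and library set cannot be told apart here, and the part of sex was not tested.

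Over 90 sums of a library and a gate, the genes whose log2(CPM + 1) ran most like each member were sought among 9834 genes with a mean of at least 10 CPM. Nearest to *Ctcf* was *Nucks1* (Pearson r = 0.88), with *Supt16* and *Smc6* next, and nearest to *Smc1a* was *Supt16* (0.89), a subunit of the FACT histone chaperone, with *Hnrnpd* and *Ctcf* next. Nearest to *Rad21* was *Ctcf* itself (0.85), before *Nfyb* and *Usp1*. *Smc3* ran most like *Smarca5* (0.89), the ATPase of ISWI remodelers, with *Cdc5l* and *Luc7l3* next. *Stag2* was nearest to *Rn45s* (0.79), *Zbtb11* and *Lars2*. The loader *Nipbl* ran like *Bptf*, *Smek1* and *Bclaf1* (0.83 each), *Wapl* like *Trappc10* (0.77), *Hipk2* and *Gapvd1*, *Pds5a* like *Scaf11* (0.77), *Supt16* and *Suz12*, and *Pds5b* like *Zfx* (0.72), *Elf2* and *4931406P16Rik*. These sums share libraries, depth and the difference between library sets, so the coefficients are descriptions across sums and not tests.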

How the data were processed

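Main olfactory epithelium was profiled by droplet RNA-seq (10X Chromium). The deposited counts are UMIs per gene and cell barcode, not normalized, which the authors obtained with Cell Ranger on mm10, introns included. Cells below 1000 UMIs or 500 genes were dropped, and the highest-scoring simulated-doublet neighbours, at 0.8% per 1000 cells, were left out. A cell entered the gate of its highest marker score when that score was at least 0.25 and rested on 3 detected markers. The score also had to lead the next list by 0.1, lists of neighbouring lineage stages left aside. Neighbouring stages were thus parted by the higher score alone, without a margin. Late immature OSN-like cells carried at least 3 *Omp* UMIs. UMIs were summed per library and gate and tested with edgeR 4.0.16 (quasi-likelihood, TMM, filterByExpr), with Benjamini-Hochberg adjustment over all genes tested. Swap and control were fitted for each gate separately, and the lineage in 1 fit of 66 sums with the library as a block. On simulated counts the swap against control fit in mOSN-like cells recovered 82 of 200 changed genes, with 10 false calls. The fit of mOSN-like against GBC-like cells recovered 169 of 200, also with 10 false calls. Recovery of differences as small as those of the 10 genes between swap and control in mOSN-like cells was not tested.

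Alternatives were DESeq2 1.42.0, its size factors in edgeR, no filter, doublets kept, a minimum of 3000 UMIs, stricter gates, UMIs per cell, a replicate block and leaving out each library. The 10 genes, the related lists and the markers were chosen with earlier results of these data known. The members named were all 10, with the 3 leading genes of each list per direction and the 3 genes most alike each member. The study gives swap and control libraries as biological replicates. A part of the genotype labels, and the genes most alike *Stag1*, are not reported here.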

Additional observations from a re-analysis of the deposited data

How the results depend on the processing

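The count of called members was 0 between swap and control in each of 6 gates under all 11 alternatives. All genes called ran over them from 0 to 271 in mature, 26 to 287 in late immature and 0 to 221 in early immature OSN-like cells. They ran from 2 to 88 in precursor-like, 1 to 91 in globose basal-like and 0 to 628 in sustentacular-like cells. Among differences between cell types the count of called members moved as follows. For mature against globose basal-like cells (7 in the report) it was 8, with *Pds5b* added, under DESeq2, its size factors, doublets kept, 3000 UMIs per cell or without tetOP2 and gg8tTA together, 6 to 8 with 1 library left out, and 4 with no filter on low counts. With no filter it was also 3 for early immature against precursor-like cells (5), 2 for late against early immature cells (1) and 3 for mature OSN-like against sustentacular-like cells (0). With stricter gates it was 1 for precursor-like against globose basal-like cells (0), 3 for early immature against precursor-like cells and 1 for mature OSN-like against sustentacular-like cells. Keeping doublets or asking for 3000 UMIs per cell gave 3 and 2 for the early and late immature steps. Without the tetOP2 and gg8tTA libraries together it was 2 for the late immature step and 2 against sustentacular-like cells. For cycling against non-cycling precursor-like cells (4) it ran from 3 to 5 over 13 alternatives. With 1 library left out the count spanned 3 to 4 for the early immature step, 1 to 3 for the late immature step and 0 to 1 against sustentacular-like cells. With the non-cycling precursors alone it was 4 for the precursor step and 2 for the early immature step. That alternative was added after the data had been seen, and its globose basal-like cells included cycling ones. All genes called moved too, from 8758 to 10413 for mature against globose basal-like cells and 3961 to 7616 for the precursor step. They ran from 3682 to 6193 and 2566 to 3797 for the early and late immature steps, and 2706 to 3962 for mature against late immature cells. Against sustentacular-like cells they ran from 8422 to 11010, and for cycling against non-cycling cells from 1451 to 2402.

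UMIs per cell changed most, as this scale keeps the differences in depth between gates. It gave 9 called members for the precursor step and for mature against globose basal-like cells, 7 for the early immature step and 0 for the late immature step. It gave 1 for mature against late immature cells and 2 against sustentacular-like cells. Of all genes, 55.4% were called lower for mature against globose basal-like cells on this scale, and 44.3% against sustentacular-like cells. On this scale signs turned for *Stag2* between globose basal-like and mature OSN-like cells (−0.38) and, in the precursor step, for *Ctcf* (−0.78), *Smc3* (−0.64), *Stag1* (−0.75) and *Stag2* (−0.80), where the median of all genes was −0.78. With non-cycling precursors alone, *Ctcf* turned to −0.66 in the precursor step and to 0.011 in the early immature step, and *Rad21* to 0.40 in the latter.

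The replicate number as a block left 0 members called in each of the 6 gates. Deviations of same-numbered libraries correlated at 0.237 to 0.533 over genes, but with 2 pairs this does not show that a number marks a shared animal, litter or day. Of 1880 member values compared over all alternatives, 1800 stayed on their side of the threshold, among them 167 that were not called and changed sign, 28 lost and 44 gained a call, and 8, called in at least 1 of the fits compared, turned. Depth limits *Pds5a* and *Pds5b* most, with 8 to 43 and 13 to 65 UMIs per library in globose basal-like cells.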

Other observations

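Among the 10 genes themselves, levels over the 90 sums of a library and a gate ran most alike for *Ctcf* and *Smc1a* (Pearson r = 0.87) and for *Ctcf* and *Rad21* (0.85). The least alike pair was *Wapl* and *Pds5b* (0.24). The sums share libraries and depth, and the values are given as a description.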
